A study of Homo sapiens with 12 samples.

Results

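The transcripts of 8 claudin genes were followed in Caco-2 spheroids: CLDN1, CLDN3, CLDN4, CLDN7 and CLDN18, whose proteins are classed here as barrier-forming, CLDN2 and CLDN15, classed as pore-forming, and CLDN12, which was left out of both classes. They were chosen by gene name from the 48162 genes of the count table, which lists 23 claudin genes, and all 8 passed the filter on low counts, as did 15 of the 23. Caco-2 is an established human colorectal adenocarcinoma line that forms polarised, enterocyte-like epithelium in culture. Spheroids were raised from cells of passage 26 inside Matrigel over 5 days, and the serum content of the medium was 20%. The groups were then exposed for 4 h to methotrexate, an antifolate drug, to lactoferrin, an iron-binding milk and mucosal protein, to methotrexate with lactoferrin (both agents), or to carrier fluid (control). Each group had 3 libraries of 1 cell line; the labels state no dose, nor that the 3 came from separate cultures, so p-values measure only how far these samples scatter, possibly for technical reasons.

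Claudins are membrane proteins with 4 transmembrane segments that polymerise into the strands of the tight junction, the seal between neighbouring epithelial cells. Extracellular loops of claudins on both cells meet across the gap and decide which ions, and how much water, pass between the cells. CLDN1, CLDN3, CLDN4 and CLDN18 tighten the seal in most settings, and CLDN7, which also sits along the lateral membrane, is usually counted with them although its effect on ions varies with the cell type. CLDN2 forms a channel for cations and water and is found in intestinal crypts. CLDN15 forms a cation channel that supplies luminal sodium in the small intestine. CLDN12, which lacks the usual binding motif for the scaffold protein ZO-1 at its end, has been tied to paracellular calcium passage.

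The libraries differed in ways that bear on every claudin value. Methotrexate libraries held 47459811 to 60591667 counts, against 18714054 to 23859094 in the other 9, and mitochondrially encoded genes took 6.67 to 7.54% of their counts, against 2 to 3.34% in control. All 10 markers of intestinal epithelium looked for, among them EPCAM and CDH17, had counts in every group, which fits the cell line, with a summed level of 2239 to 2428 CPM (counts scaled to a common library size) with methotrexate and 4554 to 5042 CPM in control. Fibroblast markers summed to 14674 to 16419 CPM with methotrexate, against 1099 to 1204 CPM in control, and adipocyte markers to 19029 to 19870 CPM against 79.8 to 82.6 CPM. Most of the fibroblast sum in control was FBLN1, at a mean of 877 CPM there and 472 CPM with methotrexate. The labels give Caco-2 for every library; whether the methotrexate libraries hold RNA of Caco-2 cells alone was not tested, and in every methotrexate value below a response of these cells cannot be told apart from RNA of other origin. Levels are CPM after TMM scaling, a trimmed-mean correction of library size, and counting intervals and floors cover counting error only. A floor of 3 counts corresponded, on that scale, to 0.0582 to 0.074 CPM with methotrexate and 0.121 to 0.144 CPM in control.

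Stretches of DNA around the start sites of claudins that moved, CLDN15 opposite to the others, are shown so that their composition can be set beside the values that follow. Those of CLDN3, and of CLDN12 and CLDN18, for which no change with methotrexate was shown under TMM scaling, are described but not printed. RefSeq lists 11 start sites for the 8 genes on GRCh38.p14, each given as 250 bases before to 50 after the start. Both strands were searched for 6 motifs, and capitals mark the matches. These were the TATA box with the letters TATAAA, the core of the CDX site with the letters TTTAT, and the core site of GATA factors with the letters AGATAA. The others were the E-box bound by Snail and ZEB factors, spelled CACCTG, the GC box, spelled GGGCGG, and the AP-1 site, spelled TGANTCA. The CDX core can overlap AGATAA or the TATA box when read on the other strand, as it does AGATAA in a CLDN18 window, and an AP-1 match reads the same on both strands and was counted 1 time. The 5 windows below belong to CLDN1, CLDN4 and CLDN7, abundant barrier claudins, and to the 2 pore-forming genes; CLDN7 and CLDN2 have a second listed start that is not shown.
CLDN1, chr3:190322397-190322696, minus strand: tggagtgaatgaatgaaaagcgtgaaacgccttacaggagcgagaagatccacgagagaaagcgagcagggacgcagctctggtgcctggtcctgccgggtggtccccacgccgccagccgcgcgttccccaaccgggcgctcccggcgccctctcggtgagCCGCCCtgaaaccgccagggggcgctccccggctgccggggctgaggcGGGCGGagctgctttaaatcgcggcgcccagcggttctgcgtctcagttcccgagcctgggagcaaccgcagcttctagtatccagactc
CLDN4, chr7:73830746-73831045, plus strand: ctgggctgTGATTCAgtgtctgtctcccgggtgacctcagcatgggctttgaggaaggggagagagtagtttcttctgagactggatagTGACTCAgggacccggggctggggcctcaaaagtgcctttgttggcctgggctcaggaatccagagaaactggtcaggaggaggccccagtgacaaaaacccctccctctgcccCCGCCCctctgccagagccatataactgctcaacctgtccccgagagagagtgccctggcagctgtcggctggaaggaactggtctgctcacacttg
CLDN7, chr17:7262429-7262728, minus strand: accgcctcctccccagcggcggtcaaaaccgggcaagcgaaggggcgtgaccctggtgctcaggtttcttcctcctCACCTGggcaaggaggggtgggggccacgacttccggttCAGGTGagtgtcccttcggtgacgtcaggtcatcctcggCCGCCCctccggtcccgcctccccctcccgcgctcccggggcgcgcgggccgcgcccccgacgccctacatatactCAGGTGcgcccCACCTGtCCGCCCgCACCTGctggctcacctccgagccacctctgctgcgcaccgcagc
CLDN2, chrX:106899914-106900213, plus strand: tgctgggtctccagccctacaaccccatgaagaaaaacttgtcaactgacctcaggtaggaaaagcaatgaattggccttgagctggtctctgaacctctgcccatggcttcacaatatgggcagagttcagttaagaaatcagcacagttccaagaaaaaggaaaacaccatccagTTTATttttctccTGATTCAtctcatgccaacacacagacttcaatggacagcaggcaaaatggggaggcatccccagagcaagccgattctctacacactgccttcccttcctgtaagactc
CLDN15, chr7:101237753-101238052, minus strand: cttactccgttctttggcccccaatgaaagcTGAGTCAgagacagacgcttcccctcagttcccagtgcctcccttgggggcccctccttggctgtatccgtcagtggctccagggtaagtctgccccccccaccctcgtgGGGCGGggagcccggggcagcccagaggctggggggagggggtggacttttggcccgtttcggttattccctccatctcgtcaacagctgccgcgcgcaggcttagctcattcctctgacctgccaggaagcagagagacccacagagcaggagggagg

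The AP-1 letters stood 2 times in the CLDN4 window and 1 time each in those of CLDN2 and CLDN15, and 7.71% of 35116 promoter windows of that length hold them at least 1 time. The E-box letters stood 5 times in the CLDN7 window and 1 time each in a CLDN3 and a CLDN18 window, against 20.6% of all windows with a match. TTTAT was found in 1 CLDN2 and 1 CLDN18 window, against 34.9% of all windows, and AGATAA stood 2 times in the same CLDN18 window, against 10.3% of all windows with a match. GC boxes, present in 45% of all windows, numbered 6 for CLDN3 and 2 each for CLDN1, the shown CLDN7 window and a CLDN18 window. CLDN4 and CLDN15 had 1 each. No window held TATAAA, which 11.5% of all windows hold, and the CLDN12 window matched none of the 6 motifs. The GC content of the members' windows ran from 47.3% for the shown CLDN2 window to 72% for CLDN3, against a median of 58.7% over all windows. It was 71.7% for the shown CLDN7 window and 67% for CLDN1. These matches describe letters in a window and say nothing of binding.

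In control spheroids the barrier claudins were by far the most abundant members when levels were set per length (CPM per kb, with the gene lengths in the table). CLDN4 (ENSG00000189143, hg19 chromosome 7, 73213872 to 73247014) led with 91.2 ± 5.67 CPM per kb (SD, n = 3 here and below). CLDN1 (ENSG00000163347, chromosome 3, 190023490 to 190040264) followed at 68.6 ± 2.34, CLDN7 (ENSG00000181885, chromosome 17, 7163222 to 7167302) at 37.5 ± 0.0917 and CLDN3 (ENSG00000165215, chromosome 7, 73183328 to 73184600) at 32.9 ± 1.1 CPM per kb. CLDN12 (ENSG00000157224, chromosome 7, 90013035 to 90142716) stood at 9.57 ± 0.396. The pore-forming CLDN2 (ENSG00000165376, chromosome X, 106143394 to 106174091) at 4.6 ± 0.368 and CLDN15 (ENSG00000106404, chromosome 7, 100875373 to 100882101) at 4.5 ± 0.485 CPM per kb overlapped each other, the only neighbours in the order that did so in control. CLDN18 (ENSG00000066405, chromosome 3, 137717577 to 137752494), a claudin of stomach and lung, lay at 0.0937 ± 0.0328 CPM per kb, from 5 to 11 counts per control library. Its stomach and lung forms start at different first exons and are not separated by a count per gene. The barrier class made up 92.4 to 92.7% of the summed claudin level per length and the pore class 3.44 to 3.88% in control.

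**Figure D1:**
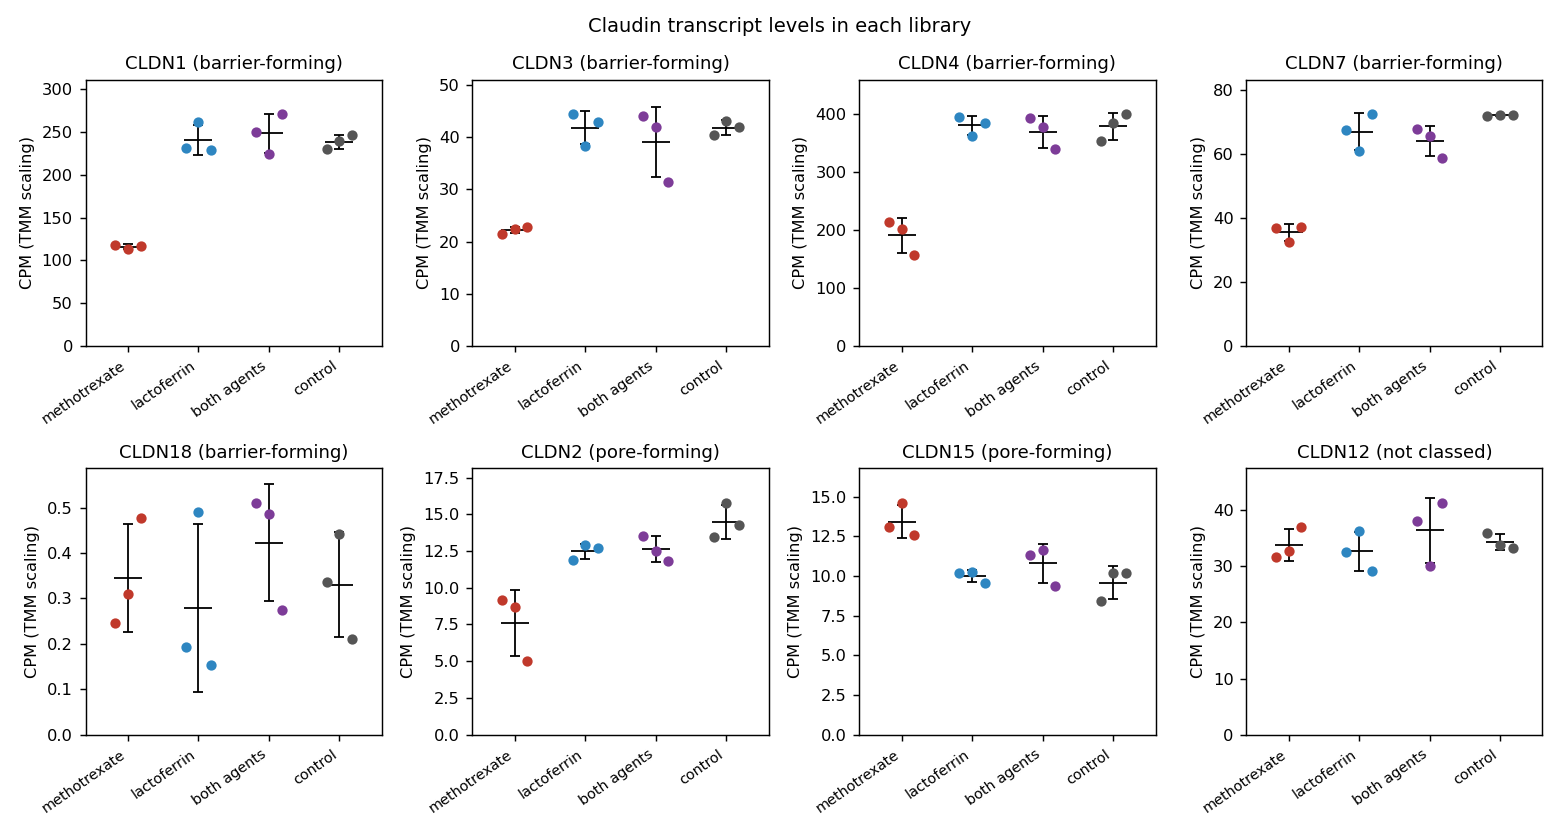
Level of each claudin (vertical axis, CPM after TMM scaling, from 0) in the 3 libraries of each group (points), with the mean (bar) and SD (whiskers). The methotrexate points of CLDN1, CLDN3, CLDN4, CLDN7 and CLDN2 lie below all others, those of CLDN15 lie above all others, and CLDN12 and CLDN18 overlap between groups.

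With methotrexate, 4 of the 5 barrier claudins and the pore former CLDN2 were lower than in control, CLDN15 was higher, and CLDN12 and CLDN18 were not called. The comparison sets the libraries labelled as exposed to the drug alone against control. The 2 pore-forming genes thus went opposite ways, and CLDN2 kept company with the barrier genes. Of the 8 members 5 were lower and 1 was higher, in a comparison in which 29.1% of 16733 genes were called lower and 35.4% higher (edgeR quasi-likelihood test, Benjamini-Hochberg adjusted p under 0.05). The members' median log2 fold change was -0.92 and that of all genes 0.03.

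CLDN4, the most abundant member, had 215, 201 and 157 CPM in the methotrexate libraries, against 354, 385 and 400 CPM in control. The groups did not overlap, methotrexate library 3 was lowest, and the log2 fold change was -0.99 ± 0.11 (SE, edgeR adjusted p = 1.05e-06). CLDN1 had 118, 113 and 117 CPM with methotrexate, against 230, 239 and 247 CPM in control. Its libraries within each group lay close together and the groups were far apart, at -1.04 ± 0.09 (edgeR adjusted p = 6.58e-08). CLDN7 had 36.9, 32.4 and 37.2 CPM with methotrexate, against 72, 72.3 and 72.1 CPM in control, where its values were nearly equal. It fell by 1.02 ± 0.10 on the log2 scale (edgeR adjusted p = 1.97e-07). CLDN3, whose protein is, with that of CLDN4, a receptor for Clostridium perfringens enterotoxin, had 21.5, 22.4 and 22.7 CPM with methotrexate, against 40.4, 43.2 and 41.9 CPM in control. The log2 fold change of CLDN3 was -0.92 ± 0.12 (edgeR adjusted p = 6.36e-06), so that the 4 abundant barrier genes fell by amounts whose 95% intervals overlap. CLDN18 was at 10, 16 and 24 counts with methotrexate, against 7, 11 and 5 in control, and its log2 fold change of 0.07 had a 95% interval from -0.94 to 1.08.

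Among the pore formers, CLDN2 had 9.15, 8.67 and 5.04 CPM with methotrexate, against 13.5, 15.8 and 14.3 CPM in control. All 3 methotrexate values were lower, and library 3 stood well below the other two, as it did for CLDN4. The log2 fold change of CLDN2 was -0.93 ± 0.18 (edgeR adjusted p = 0.000263), or -0.70 without methotrexate library 3. CLDN15 had 13.1, 14.6 and 12.6 CPM with methotrexate, against 8.39, 10.2 and 10.2 CPM in control. Each methotrexate library was above each control library, and the log2 fold change was 0.49 ± 0.13 (edgeR adjusted p = 0.00424). CLDN12 had 31.6, 32.7 and 37 CPM with methotrexate, against 35.9, 33.8 and 33.2 CPM in control. These groups overlapped, and the log2 fold change of -0.02 had a 95% interval from -0.29 to 0.24.

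These directions depend on how the deeper methotrexate libraries are scaled. Before any scaling, CLDN1 had 4768, 5819 and 5906 counts with methotrexate and 4806, 5946 and 5836 in control, although the methotrexate libraries were deeper. CLDN4 had 8705, 10383 and 7926 counts with methotrexate and 7382, 9588 and 9465 in control, whereas CLDN15 had 531, 752 and 635 against 175, 253 and 241, and CLDN12 1282, 1688 and 1865 against 749, 842 and 785. When libraries were scaled on 61 genes of the brush border, the adherens junction, the tight junction and intestinal epithelium, with no claudin among them (epithelial scaling), the median log2 fold change of all genes shifted from 0.03 to 0.84. CLDN1 then stayed called as lower, at -0.23 ± 0.09 (edgeR adjusted p = 0.0294). CLDN7 was at -0.21 (edgeR adjusted p = 0.0863), CLDN4 at -0.18 (0.181), CLDN2 at -0.12 (0.55) and CLDN3 at -0.10 (0.504), and none of these 4 was called. CLDN15 was higher by 1.30 ± 0.15 (edgeR adjusted p = 7.3e-07) and CLDN12 by 0.79 ± 0.12 (1.36e-05). That made 2 members higher and 1 lower, where 70.5% of all genes were called higher and 1.57% lower. CLDN15 was thus higher and CLDN1 lower under either scaling, while the call of CLDN12 rests on the choice.

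**Figure D2:**
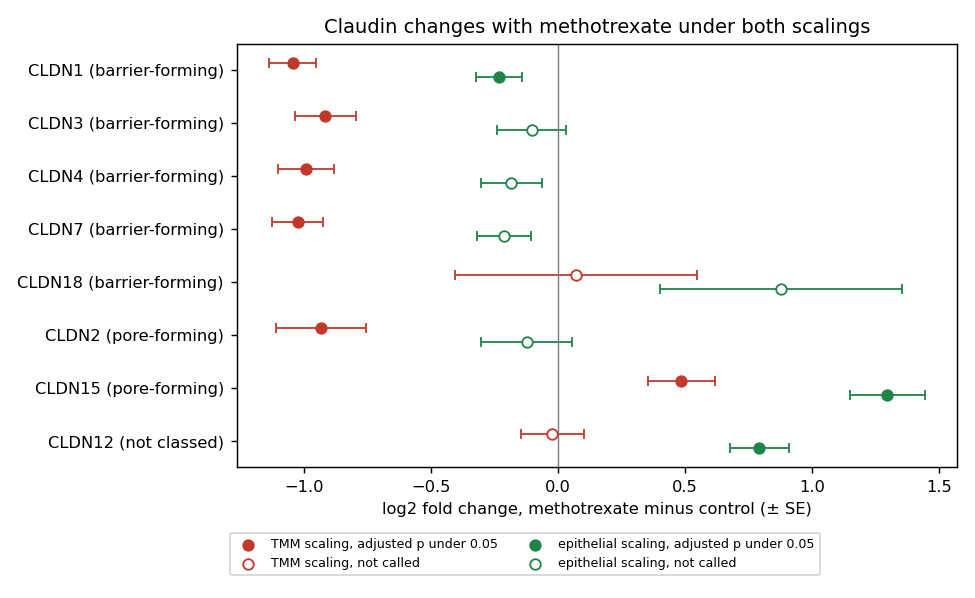
Log2 fold change of each claudin, methotrexate minus control (horizontal axis, whiskers are SE), under TMM scaling (red) and epithelial scaling (green); filled points have an adjusted p under 0.05. Epithelial scaling moves every point to the right, so that CLDN3, CLDN4, CLDN7 and CLDN2 lose their call, CLDN12 gains one, and CLDN1 (-0.23) and CLDN15 (1.30) keep theirs.

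Ratios between claudins of the same library do not depend on the scaling, but they do depend on the genes in the denominator. They shifted with methotrexate, and within the pore class the shift was carried by CLDN15 and not by CLDN2. The summed level per length of CLDN2 and CLDN15 over that of the 5 barrier genes had log2 values of -3.75, -3.59 and -3.86 with methotrexate, against -4.75, -4.57 and -4.67 in control. All 3 methotrexate libraries were above all 3 control libraries, with means of -3.73 ± 0.14 and -4.66 ± 0.09. The abundant barrier genes in the denominator fell along with the junction, brush border and epithelial lists, whose medians under TMM scaling ran from -1.01 to -0.63. Under epithelial scaling the median of all genes was at 0.84, so a rise against the barrier genes was not particular to the pore formers. The pore class made up 5.94 to 7.16% of the summed claudin level with methotrexate, against 3.44 to 3.88% in control. CLDN15 alone made up 4.73 ± 0.352% with methotrexate and 1.8 ± 0.134% in control, while CLDN2 made up 1.8 ± 0.465% and 1.85 ± 0.117% and overlapped between the groups. CLDN12 made up 7.1 ± 0.946% with methotrexate and 3.85 ± 0.305% in control, without overlap. The share of CLDN1 was 25 ± 1.38% with methotrexate and 27.5 ± 0.273% in control, also without overlap. No test was made of these shares, since the members were chosen with results known.

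Against CLDN4, the log2 ratio of CLDN15 per length was -2.86 ± 0.20 with methotrexate and -4.35 ± 0.08 in control, and that of CLDN12 was -2.28 ± 0.36 and -3.25 ± 0.15, both without overlap. The ratio of CLDN2 to CLDN4 was -4.28 ± 0.24 with methotrexate and -4.31 ± 0.10 in control. The ratios of CLDN1 (-0.45 ± 0.25 and -0.41 ± 0.04), CLDN3 (-1.38 ± 0.27 and -1.47 ± 0.07) and CLDN7 (-1.30 ± 0.30 and -1.28 ± 0.09) to CLDN4 overlapped between methotrexate and control as well. Between the 2 pore formers, CLDN15 over CLDN2 was 1.43 ± 0.41 with methotrexate and -0.04 ± 0.10 in control. Relative to CLDN4, a difference between the groups larger than the spread of the libraries was thus seen for CLDN15 and CLDN12 and not for the other 4 ratios. CLDN4 itself was at -0.99 under TMM scaling and the median of all 16733 genes at 0.03, so a gene at that median also rises against CLDN4. CLDN12, at -0.02, lay near that median, and CLDN15, at 0.49, lay above it. In the order of levels per length with methotrexate, CLDN15 stood above CLDN2 without overlap, at 6.3 ± 0.484 and 2.42 ± 0.713 CPM per kb, while CLDN7 and CLDN3 overlapped. CLDN15 also stood above CLDN2 without overlap with lactoferrin (4.69 ± 0.181 and 3.96 ± 0.168 CPM per kb) and with both agents (5.06 ± 0.583 and 4.00 ± 0.277 CPM per kb).

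**Figure D3:**
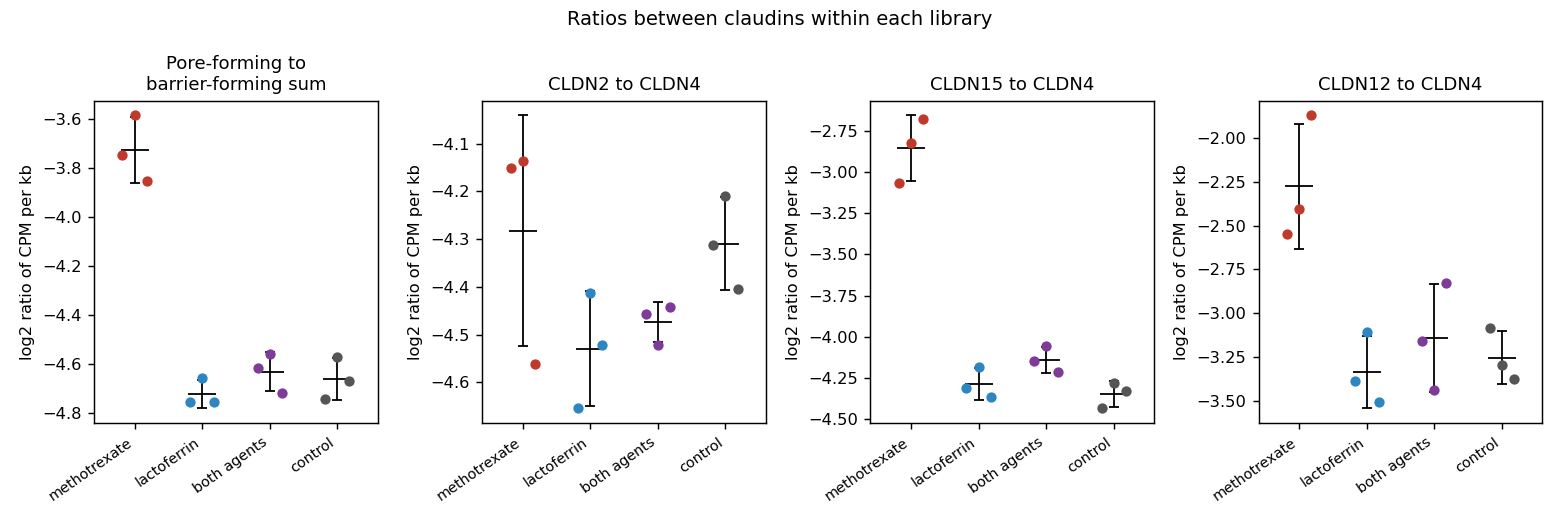
Log2 ratios of levels per length within each library (points), with group mean (bar) and SD (whiskers), for the pore-forming over the barrier-forming sum and for CLDN2, CLDN15 and CLDN12 over CLDN4; the vertical axes differ and do not start at 0. Methotrexate libraries stand above all others for the summed ratio, CLDN15 and CLDN12, while for CLDN2 they span -4.56 to -4.14 and overlap control.

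Other claudins, and genes whose proteins work beside claudins, were set beside the members. Of 15 further claudin genes in the table, 7 passed the filter, of which 1 was higher and 2 were lower with methotrexate, with a median log2 fold change of 0.07. The riser was CLDN11, a claudin of myelin and testis, with 1621, 2833 and 2912 counts in the methotrexate libraries, against 8, 7 and 9 in control (50.9 ± 9.58 and 0.348 ± 0.0581 CPM, log2 fold change 7.18 ± 0.23, edgeR adjusted p = 1.72e-13). The lowest methotrexate library thus held 1621 CLDN11 counts and the highest control library 9. CLDN19, known from kidney and retina, was lower (8.15 ± 1.23 CPM with methotrexate and 15.9 ± 0.672 CPM in control, -0.96 ± 0.13, edgeR adjusted p = 8.36e-06), and so was CLDN16, a kidney claudin. Under epithelial scaling 2 of the 7 were higher and 0 lower, with a median of 0.87, and CLDN19 (-0.15) and CLDN16 (-0.20) were not called. CLDN5, the claudin of endothelium, did not pass the filter and had 9, 15 and 11 counts with methotrexate, against 5, 3 and 8 in control. On the CPM scale, which allows for depth, its levels were alike, at 0.244 ± 0.0409 and 0.233 ± 0.109 CPM.

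Of 21 tested partners of claudins in the tight junction, 18 were lower and 3 higher with methotrexate, with a median of -0.63, near the members' -0.92. Occludin (OCLN), a strand protein beside the claudins, was at 66.9 ± 5.79 CPM with methotrexate and 141 ± 2.97 CPM in control (-1.08 ± 0.12, edgeR adjusted p = 8.43e-07). Cingulin (CGN), which links the junction to the cytoskeleton, was at 132 ± 19.6 and 285 ± 30.6 CPM (-1.11 ± 0.11, edgeR adjusted p = 3.88e-07). ZO-1 (TJP1), the scaffold that binds claudin tails, was at 109 ± 8.53 and 158 ± 3.94 CPM (-0.53 ± 0.11, edgeR adjusted p = 0.000442). The risers included the scaffold MPDZ (73.4 ± 5.46 CPM with methotrexate, 0.0543 ± 0.0612 CPM and 4 counts in all of control) and AMOTL1 (0.31 ± 0.08). These partners, and the adherens junction, brush border and epithelial lists below, supplied the genes on which epithelial scaling centres, so their balance under it is set by that choice and is no independent check. Under epithelial scaling 8 of the 21 were higher and 5 lower, and their median was 0.18. OCLN (-0.27) and CGN (-0.30) stayed lower by that scaling, whereas TJP1 turned to higher, at 0.28 (edgeR adjusted p = 0.0206). OCLN, TJP1 and AMOTL1 were singled out after their values were seen. Of 14 genes of the adherens junction and desmosome, 12 were lower and 0 higher, with a median of -0.78, or 3 higher and 1 lower under epithelial scaling. E-cadherin (CDH1) and desmoplakin (DSP), which anchor cell contacts to actin and to keratin, were at -0.996 ± 0.084 and -0.981 ± 0.095. The brush border list had 14 lower and 2 higher of 17 (median -1.01; 3 lower and 4 higher under epithelial scaling), with villin (VIL1, -1.12 ± 0.10) at the lowest p. Of the 10 epithelial markers 8 were lower and 0 higher (median -0.98; 2 lower and 0 higher under epithelial scaling).

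Of 12 tested transcription factors tied to claudin genes in the literature, 6 were lower and 4 higher with methotrexate, or 1 and 5 under epithelial scaling. The lower ones included CDX2, a known activator of CLDN2, and HNF4A, both factors of intestinal epithelium, at -1.21 ± 0.26 and -1.10 ± 0.13 (edgeR adjusted p = 0.00073 and 2.47e-06), but neither was called under epithelial scaling (-0.41 and -0.30). GRHL2, at -1.26 ± 0.13 (edgeR adjusted p = 4.35e-07), was the 1 factor still called lower under epithelial scaling (-0.45, edgeR adjusted p = 0.00438). The higher ones were SNAI2, TWIST1, ZEB1 and ZEB2, factors of mesenchymal cells that repress epithelial junction genes. ZEB1 was at 20.7 ± 1.08 CPM with methotrexate and 0.111 ± 0.0799 CPM in control, and ZEB2 at 90.2 ± 4.15 CPM, against 3 counts in all of control. CDX2, HNF4A, GRHL2, SNAI2 and TWIST1 were singled out after their values were seen.

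**Figure D4:**
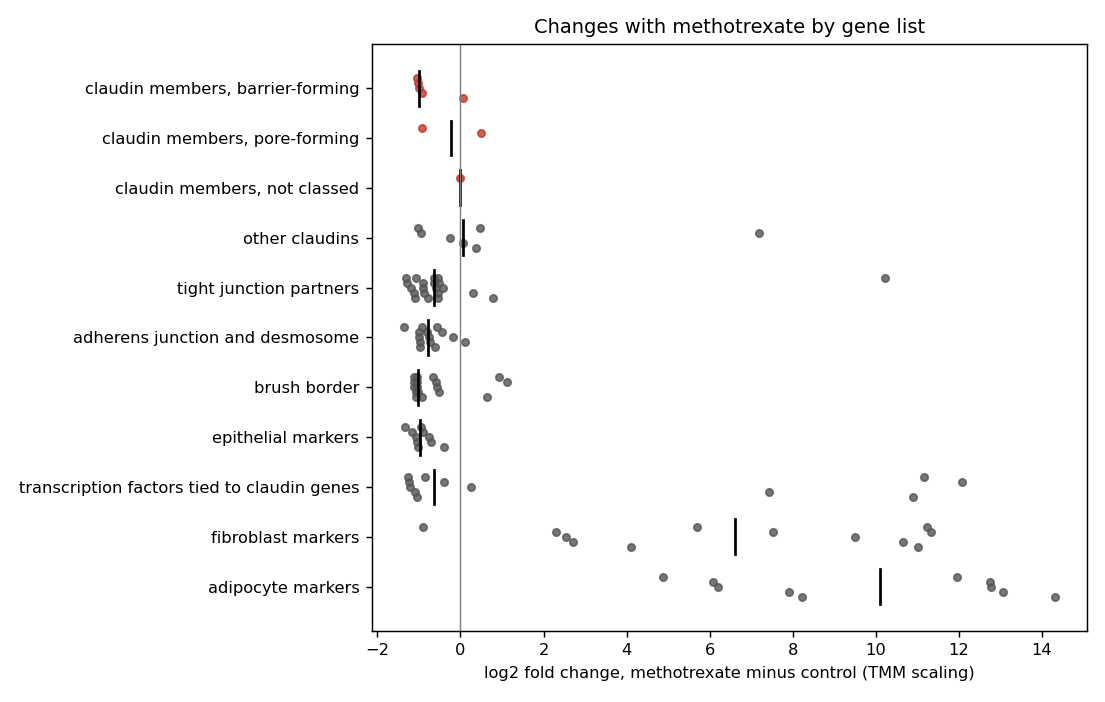
Log2 fold change, methotrexate minus control under TMM scaling (horizontal axis), of each tested gene (points) in the claudin classes (red) and in other gene lists (grey), with the median of each list as a black bar. CLDN1, CLDN3, CLDN4, CLDN7 and CLDN2 lie among the adherens junction, brush border and epithelial genes near -1, and CLDN11, at 7.18, stands apart from the other claudins; fitted values of genes with almost no counts in control depend on the prior count.

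Markers of other cells moved with the same libraries. Of 12 fibroblast markers 11 were higher and 1, FBLN1, was lower with methotrexate. COL3A1 was at 3781 ± 181 CPM, against 1.48 ± 0.16 CPM in control. All 10 adipocyte markers were higher, and GPD1 was at 2917 ± 131 CPM, against 12.1 ± 1.04 CPM. Of 7 tested endothelial markers 5 were higher and 1 lower. The summed level of the listed ones was 32.6 to 35.6 CPM with methotrexate and 26.4 to 35.3 CPM in control. EGFL7, the marker called lower, made up most of these sums, at 20.7 CPM with methotrexate and 27.9 CPM in control. TEK and EMCN had 393 and 266 counts in all of the methotrexate libraries and 0 in control. Of 4 tested blood cell markers 2 were higher and 2 lower, with summed levels of 44.7 to 52.2 and 45.7 to 49.3 CPM, CD68 at 0 counts in both groups and CD163 and MS4A1 at 0 in control. Markers of other epithelia summed to 59.5 to 67.3 CPM with methotrexate and 99.5 to 106 CPM in control, mostly from TFF1 and TFF2. Of 6 tested 1 was higher and 4 lower, and PIP and SCGB2A2 were at 0 in both groups. The higher one was KRT14, with 1900 counts in all of the methotrexate libraries and 0 in control. The part of these transcripts, of depth and of the mitochondrial share in the claudin changes was not tested. In bulk RNA, fewer cells of a type and less RNA per cell cannot be told apart.

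With lactoferrin alone, no claudin was shown to differ from control. None of the 8 was called by edgeR, in a comparison in which 0% of genes were called, and 0 of the 8 had an unadjusted p under 0.05, against 628 of 16733 genes (3.75%). DESeq2 also called 0 genes. CLDN4 had 395, 363 and 385 CPM with lactoferrin and CLDN1 had 231, 261 and 229 CPM, all near the control values given above. The log2 fold change of CLDN1 was 0.01 (95% interval -0.18 to 0.21), that of CLDN4 0.00 (-0.23 to 0.24) and that of CLDN3 0.00 (-0.25 to 0.26). CLDN2 had 11.9, 12.9 and 12.7 CPM with lactoferrin, all below the 3 control values, and its log2 fold change was -0.22 (95% interval -0.60 to 0.16, edgeR adjusted p = 1). CLDN15 was at 0.06 (-0.23 to 0.35), CLDN7 at -0.11 (-0.32 to 0.10) and CLDN12 at -0.07 (-0.34 to 0.20). For CLDN18, with 3 to 10 counts per lactoferrin library, the interval of -1.41 to 0.93 allows changes of more than 2-fold. The pore to barrier ratio was -4.72 ± 0.06 with lactoferrin and -4.66 ± 0.09 in control. Of the junction, epithelial and other lists above, 0 genes were called with lactoferrin.

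Both agents together did not give the claudin values of methotrexate alone. Against control, none of the 8 was called, where 0.0299% of genes were, and 0 of the 8 had an unadjusted p under 0.05. CLDN4 had 393, 378 and 340 CPM with both agents, and CLDN1 250, 225 and 270 CPM. Both overlapped control, and so did CLDN15 with 11.3, 11.6 and 9.36 CPM and CLDN12 with 38, 30 and 41.3 CPM. CLDN7, at 67.8, 65.8 and 58.9 CPM, lay below its 3 control values, with a log2 fold change of -0.17 (95% interval -0.38 to 0.04). CLDN2, at 13.6, 12.5 and 11.8 CPM, was at -0.20 (-0.58 to 0.18), CLDN3 at -0.10 (-0.35 to 0.16) and CLDN18, with 12, 10 and 6 counts, at 0.35 (-0.73 to 1.43). Library 3 of this group was lowest for CLDN3 (31.4 CPM, against 44.1 and 41.9 in its fellows), CLDN4, CLDN7, CLDN2, CLDN15 and CLDN18, and highest for CLDN1 and CLDN12. Against lactoferrin alone, none of the 8 was called either, where 0.0179% of genes were, and the values ran from -0.10 for CLDN3 to 0.59 for CLDN18.

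Set against methotrexate alone, the libraries with both agents held more CLDN1, CLDN3, CLDN4, CLDN7 and CLDN2 and less CLDN15. That made 5 members higher and 1 lower, where 28.8% of all genes were called higher and 34.4% lower. CLDN1 averaged 248 ± 22.9 CPM with both agents and 116 ± 2.63 CPM with methotrexate (1.10 ± 0.09, edgeR adjusted p = 3.58e-08), and CLDN4 370 ± 27.8 and 191 ± 30 CPM (0.95 ± 0.11, adjusted p = 1.66e-06 by edgeR). CLDN2 averaged 12.6 ± 0.873 and 7.62 ± 2.24 CPM (0.73 ± 0.18, edgeR adjusted p = 0.00212). CLDN15 averaged 10.8 ± 1.24 and 13.4 ± 1.03 CPM (-0.32 ± 0.13, edgeR adjusted p = 0.0446), a call near the threshold that ended under 14 of 20 alternatives; over these its adjusted p ran from 3.35e-06 to 0.17. Under epithelial scaling, CLDN1 stayed higher (0.28 ± 0.09, edgeR adjusted p = 0.0108), CLDN15 was lower by -1.13 ± 0.15 (3.35e-06) and CLDN12 by -0.72 ± 0.12 (3.89e-05). That is 1 member higher and 2 lower, where 1.6% of genes were called higher and 70.8% lower. The pore to barrier ratio, free of scaling, was -4.63 ± 0.08 with both agents and -3.73 ± 0.14 with methotrexate, without overlap. This comparison and the one of methotrexate with control share the methotrexate libraries.

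The effect of methotrexate in the presence of lactoferrin was tested against its effect in the absence of it. The interaction was called for 5 members, all in the positive direction, where 20.6% of genes were called positive and 26.1% negative. It uses the same methotrexate libraries as methotrexate against control. Among the other groups only 0, 5 and 3 genes were called per comparison. The interaction thus largely repeats methotrexate against control with the sign turned and is no separate result. For CLDN1 the log2 fold change with methotrexate was 0.05 in the presence of lactoferrin and -1.04 in its absence, a difference of 1.09 ± 0.13 (edgeR adjusted p = 5.7e-06). The difference was 0.96 ± 0.14 for CLDN7, 0.95 ± 0.16 for CLDN4, 0.95 ± 0.25 for CLDN2 and 0.82 ± 0.17 for CLDN3. CLDN15 was at -0.37 ± 0.19 (edgeR adjusted p = 0.116), CLDN12 at 0.18 ± 0.18 and CLDN18 at 0.52 ± 0.72, and none of these was called. Under epithelial scaling 0 members were positive and 2 negative, CLDN15 at -1.18 ± 0.21 and CLDN12 at -0.64 ± 0.16, where 0.771% of genes were called positive and 59.6% negative. CLDN1 was then at 0.27 with an edgeR adjusted p = 0.0779.

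**Figure D5:**
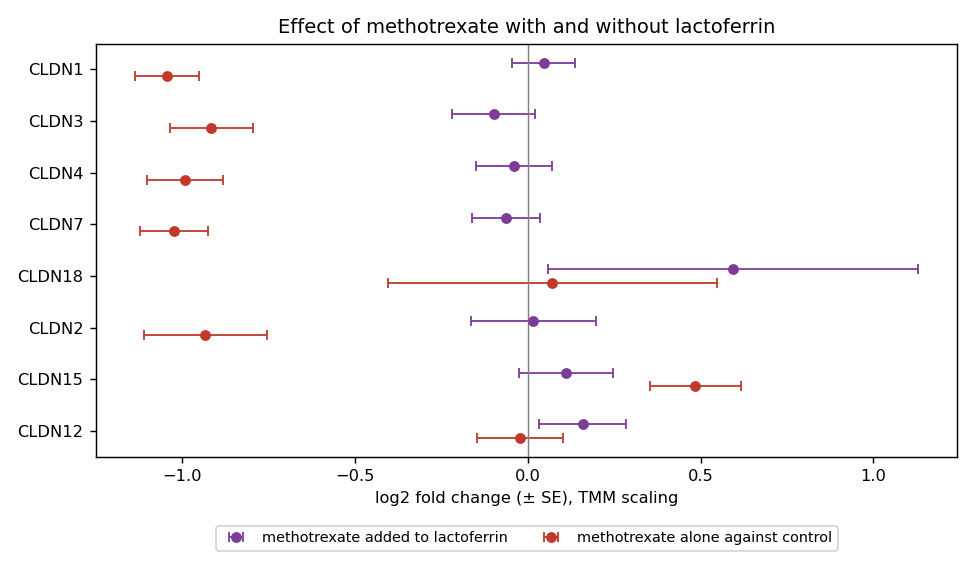
Log2 fold change of each claudin (horizontal axis, TMM scaling, whiskers are SE) for methotrexate added to lactoferrin (purple) and for methotrexate alone against control (red). The purple points lie near 0 for all but CLDN18, while the red points of CLDN1, CLDN3, CLDN4, CLDN7 and CLDN2 lie between -1.04 and -0.92 and that of CLDN15 at 0.49.

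The genes whose pattern over the 12 libraries came nearest to each member are given here as description. Likeness was measured as the Euclidean distance between centred log2 CPM, over 14907 named genes. Such a distance is small mainly for genes with a like shift in the methotrexate libraries. That neighbours share a member's direction therefore follows from the measure, and distances among members restate their fold changes. PRTFDC1 and the amino acid transporter SLC7A2 were nearest to CLDN1 (distances of 0.174 and 0.196), IGDCC3 and KIAA1161 to CLDN4 (0.167 and 0.181), and the small GTPase RAB17 and DENND1C to CLDN3 (0.236 and 0.255). The replication factor GINS2 and sorbitol dehydrogenase (SORD) were nearest to CLDN7 (0.229 and 0.251), and ZNF853 and the lipid kinase PIK3C2B to CLDN2 (0.288 and 0.338). CLDN15 lay nearest to the peroxiredoxin gene PRDX2 and to CHPF2 (0.257 and 0.311), and CLDN12 to COPB1, of the vesicle coat, and SRP9, of the signal recognition particle (0.148 and 0.174). Among the members themselves, CLDN3 and CLDN7 were the closest pair, at 0.348, and CLDN2 was closer to CLDN4 (0.547) than to the other pore former CLDN15 (2.03).

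Several members share their place in the genome with other genes of the table, and no source used here says whether strand was used in counting. The whole span of CLDN2 lies within that of MORC4 on the opposite strand, which held 13671 counts over all libraries, against 3677 for CLDN2, and was at 0.01 in methotrexate against control. CLDN12 overlaps CDK14 by 46979 bases and GTPBP10 by 7735 bases, both on its own strand, and these were at 1.07 and -0.11. CLDN7 overlaps ELP5 on the other strand by 38 bases. CLDN15 lies 637 bases from FIS1, on the same strand, which was at 0.58, near the 0.49 of CLDN15. CLDN1 starts 65 bases from CLDN16 on the opposite strand, and CLDN16 was at -1.01 ± 0.24, beside -1.04 for CLDN1. The counts of CLDN2 and CLDN12 may therefore include fragments of these neighbours; no part of this was tested.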

How the data were processed

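RNA from 12 libraries of Caco-2 spheroids, 3 per group, was counted per gene. The authors deposited whole-number counts for 48162 genes with hg19 coordinates and gene lengths; the submitters' processing notes name CASAVA, STAR and DESeq2. No source used here gives their versions, the annotation, the counting program or the use of strand.

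The tests used edgeR 4.0.16 (R 4.3.3): filterByExpr on the 4 groups (16733 genes left), TMM factors (0.852 to 0.884 for methotrexate, 1.01 to 1.08 otherwise), 1 mean per group over all 12 libraries, and the quasi-likelihood F test for 6 contrasts. P-values were adjusted by Benjamini-Hochberg over all genes and called under 0.05. The SE is the log2 fold change over the square root of F, and 95% intervals use the moderated degrees of freedom (median 15.6). Shares and ratios used CPM per kb and have no test. Epithelial scaling took the median ratio over 61 of 64 listed genes. Library totals ran from 18714054 to 60591667 counts. The fit was first tested on counts simulated from control levels with few genes changed. In the data 10791 genes were called with methotrexate, so that test does not bear on the choice of scaling.

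All 8 members were named whatever their values. From other lists, up to 2 genes with the lowest p were named, and for each member but the scarce CLDN18 the 2 genes nearest in pattern. Genes named outside this rule include CLDN16, CLDN5, EPCAM, FBLN1, EGFL7 and TFF2, besides those said above to be singled out. The members, classes, lists and alternatives were chosen with earlier results of these data known. Same-numbered libraries were checked for pairing: 0 of 18 correlations of deviations were over 0.1, so the numbers do not pair them. PECAM1 and CLDN34 were listed and not analysed here. Alternatives were relative log expression factors, epithelial scaling, no filter, DESeq2 1.42.0, the submitters' thresholds (over 2-fold, adjusted p under 0.01), a replicate block, the compared groups alone, no methotrexate group, thinned methotrexate libraries, and each library left out.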

Additional observations from a re-analysis of the deposited data

Results flagged for a closer look

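For 5 claudins the log2 fold change with methotrexate differed between libraries with and without lactoferrin, by edgeR's test of the interaction under TMM scaling. None of the 5 was called under epithelial scaling. The test uses the same methotrexate libraries as methotrexate against control, and largely repeats that comparison with the sign turned. As in every value that uses the methotrexate libraries, a response of the cells cannot be told apart here from RNA of other origin. The difference, the effect with lactoferrin minus that without, was 1.09 on the log2 scale for CLDN1 (adjusted p = 5.7e-06), 0.82 for CLDN3 (0.00104), 0.95 for CLDN4 (0.000137), 0.96 for CLDN7 (4.34e-05) and 0.95 for CLDN2 (0.00634). Over the alternatives, the adjusted p of these 5 ran up to 0.0779 for CLDN1, 0.995 for CLDN3, 0.497 for CLDN4, 0.421 for CLDN7 and 0.68 for CLDN2, each under epithelial scaling. With each library left out in turn all 5 stayed called, at 1.03 to 1.16 for CLDN1, 0.73 to 0.96 for CLDN3, 0.83 to 1.04 for CLDN4, 0.90 to 1.02 for CLDN7 and 0.72 to 1.10 for CLDN2.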

How the results depend on the processing

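Among the claudins, CLDN1 kept its call with methotrexate under all 20 alternatives (-1.07 to -0.23), and CLDN15 kept its direction under all 20 (0.39 to 1.30) and lost its call only to the 2-fold threshold. The counts of members called, 6, 6 and 5 for methotrexate against control, both agents against methotrexate and the interaction, came to 3, 3 and 2 under epithelial scaling and to 2, 1 and 1 with the submitters' thresholds, which also moved the counts of all genes from 10791, 10576 and 7808 to 4525, 4400 and 3296. Leaving out each library gave 6, 5 to 6 and 5 members. Epithelial scaling turned the sign of CLDN12 in these 3 comparisons (0.79, -0.72 and -0.64), of CLDN18 in the last 2 (-0.53 and -0.29) and of CLDN2 in the second (-0.084). For methotrexate against control, CLDN12 was also at 0.0086 with no filter and CLDN18 at -0.079 with thinned libraries, and leaving out a library gave -0.092 to 0.023 for CLDN12 and -0.23 to 0.35 for CLDN18. No member was called in the other 3 comparisons under the 20 or 21 alternatives run. All genes called with lactoferrin numbered 17 with no filter, against 0. For both agents against control, 5 became 38 with no filter, 15 with DESeq2, 2 with the submitters' thresholds, 3 with the replicate block, 0 with the compared groups alone and 0 without the methotrexate group, and 0 to 8 with a library left out. For both agents against lactoferrin, 3 became 19 with no filter, 7 with DESeq2, 0 with the compared groups alone, 0 without the methotrexate group, and 0 to 5 with a library left out. The replicate block ended 1 member call, CLDN15 in both agents against methotrexate (adjusted p = 0.0546); 3 of 12 libraries correlated best with their own number, so the numbers do not pair them. The rise of the pore to barrier ratio with methotrexate, 0.93, ran from 0.81 without division by length to 1.00. The causes of these changes were not tested. Depth limits CLDN18, with 3 to 24 counts per library.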
